A study of Mus musculus with 20 samples.

Results

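Accessibility of the inactive X was compared between a pair of reciprocal wild-type (WT) mouse cell lines at 345 ATAC-seq peaks, after Xist had been switched on for 5, 7 or 15 days. The peaks were chosen by position: a peak entered where it was listed for both lines with an overlap of at least 50% of the shorter peak. They are 345 of the 628 distinct peaks of the series, from 390 listed for iXist-ChrX-Dom and 583 listed for iXist-ChrX-Cast. All 345 had the same start, the same end and the same YY1 mark in both tables. Of the others, 218 lay beyond the last peak of the iXist-ChrX-Dom table, because a recombination in that line leaves only the chromosome proximal to Xist informative. Within the shared stretch, 45 peaks were listed for iXist-ChrX-Dom alone and 20 for iXist-ChrX-Cast alone.

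iXist-ChrX cells are female hybrid embryonic stem cells (mESCs) with a domesticus (129S) X and a castaneus (Cast) X, which sequence variants tell apart. Doxycycline starts Xist from a TetOn promoter on the domesticus X in iXist-ChrX-Dom (here Dom) and on the castaneus X in iXist-ChrX-Cast (here Cast), so the silenced strain is swapped between lines. Each line was differentiated towards neural progenitor cells (NPCs) with doxycycline present throughout, and it gave 1 library a day, so 6 WT libraries were compared. Undifferentiated WT mESCs of day 0 and the SmcHD1 knockout (KO) clones SmA3, made in Dom, and SmD5, made in Cast, served for comparison. Each background is 1 WT line and 1 KO clone, so the strain of the silenced X and the history of the line cannot be told apart. Transposition was in technical duplicate, with no replicate of a culture. The cell line field of the Cast samples names the Dom line, and their titles were followed. The tables hold ratios between alleles and no absolute levels, so NPC identity was not checked.

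In female mammals the long noncoding RNA Xist coats the X from which it is made, and regulatory elements (REs) on that X, the inactive X (Xi), lose accessibility. Some genes, called escapees, keep an open promoter on Xi. The Firre and Dxz4 loci, tandem repeats that organise the folding of Xi, gain accessibility there relative to the active X (Xa). YY1 is a zinc finger transcription factor that binds many X-linked promoters and also the Firre and Dxz4 repeats. The measure used here is the allelic ratio, Xi/(Xi + Xa): both alleles are equally open at 0.5, and at 0 no fragment of the silenced X was recorded. A strain bias that lies in the DNA raises the ratio in one line and lowers it in the other, whereas a property of Xi itself gives like ratios in both.

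Reference sequence (mm10, plus strand, C57BL/6J, so without the strain variants) is shown for peaks on which the comparison turns. They are 5 peaks with a strain difference and the Xist promoter peak, which was kept in both lines. Each stretch lies around the motif match nearest the centre of its peak, or at the centre where there is no match. A stretch named after a promoter is thus part of the promoter peak and need not hold the start site. Capitals mark AAGATGGC, the core read by YY1, or CNAGGNGGC, a core of the CTCF motif, on either strand.
Firre intron, chrX:50566561-50566680: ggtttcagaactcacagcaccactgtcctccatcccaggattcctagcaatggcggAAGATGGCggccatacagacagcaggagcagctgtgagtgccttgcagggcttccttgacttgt
Gm8666 exon, chrX:75475387-75475506: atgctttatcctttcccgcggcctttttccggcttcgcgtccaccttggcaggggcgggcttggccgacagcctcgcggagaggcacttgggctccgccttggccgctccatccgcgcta
Dxz4, chrX:75758845-75758964: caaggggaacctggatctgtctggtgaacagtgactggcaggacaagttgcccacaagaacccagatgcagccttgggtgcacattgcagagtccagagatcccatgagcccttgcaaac
Zfx promoter, chrX:94122694-94122813: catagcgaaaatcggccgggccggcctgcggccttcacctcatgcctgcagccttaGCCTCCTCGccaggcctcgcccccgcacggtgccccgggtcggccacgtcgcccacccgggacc
Snx12 promoter, chrX:101222120-101222239: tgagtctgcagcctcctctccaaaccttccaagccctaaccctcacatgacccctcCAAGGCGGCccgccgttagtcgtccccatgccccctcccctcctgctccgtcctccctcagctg
Xist promoter, chrX:103481819-103481938: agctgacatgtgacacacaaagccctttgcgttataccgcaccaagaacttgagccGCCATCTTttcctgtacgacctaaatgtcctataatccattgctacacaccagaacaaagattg
The YY1 letters were present in 50 of all 345 peaks (14.5%) and in 48 of the 197 marked as YY1-binding (24.4%). By locus, 8 of 11 peaks of the Firre window held them (72.7%) and 0 of 4 of the Dxz4 window. The CTCF letters were present in 108 of 345 (31.3%), in 1 of 11 Firre window peaks (9.09%) and in 0 of 4 Dxz4 window peaks. Peaks differ in length, with a median of 1046 bp, and a match is a description of these letters only.

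The median Xi accessibility was close in both lines on each day. Over the 345 peaks the median ratio was 0.50 on day 0 in each line, and on day 5 it was 0.0986 in Dom and 0.0988 in Cast. On day 7 it was 0.0789 in Dom and 0.08 in Cast, and on day 15 it was 0.0667 in Dom and 0.0526 in Cast. The difference between lines averaged 0.00427 ± 0.00847 (SD, n = 3 days), and an exact paired permutation test over the days gave a two-sided p = 1, where the smallest p the design allows is 0.25. The Cast library of day 15 stood apart: 94 of its peaks were at a ratio of exactly 0 and 3 at exactly 1, against 18 to 53 at 0 in the other WT libraries of these days and none at 1. A ratio of 0 stood in at least 1 of the 6 libraries at 158 peaks. The tables hold no fragment counts, so the depth behind a ratio is unknown.

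Single peaks were less alike than the medians. The mean ratio of days 5, 7 and 15 differed between lines by under 0.05 at 201 of 345 peaks (58.3%) and by under 0.1 at 278 (80.6%), and the median size of the difference was 0.0397. Across the 345 peaks, which share libraries and so are not independent, Spearman's rho between the Dom and Cast means was 0.44 and Pearson's r was 0.75, and without day 15 rho was 0.45. Taken day by day, rho was 0.45 (day 5), 0.39 (day 7) and 0.24 (day 15). The days of 1 line were more alike in Dom, at 0.55 to 0.57 between days, but not in Cast, at 0.34 to 0.48, where the lower values both involve day 15. Each KO library gave 0.40 to 0.62 with its WT library of the same day in Dom and 0.27 to 0.55 in Cast. The rho between strains on a given day thus lay within or below the range between days of a single WT line, and among the WT pairs those with the Cast day 15 library were lowest.

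Much of the linear agreement came from few peaks. Without the 19 peaks of the Firre, Dxz4 and Xist windows (each locus with 10000 bp on either side), Pearson's r was 0.27 and rho 0.34 over the 326 others. In SmcHD1 KO the library medians after induction were higher, at 0.167 to 0.204 apart from 0.0848 in Cast on day 15, and rho between the Dom and Cast means was 0.65 over all 345 peaks and 0.59 outside the windows. Before induction the relation ran the other way, with rho of -0.35 between the day 0 ratios of the WT lines: peaks with the higher ratios in one line tended to have the lower ones in the other.

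**Figure D1:**
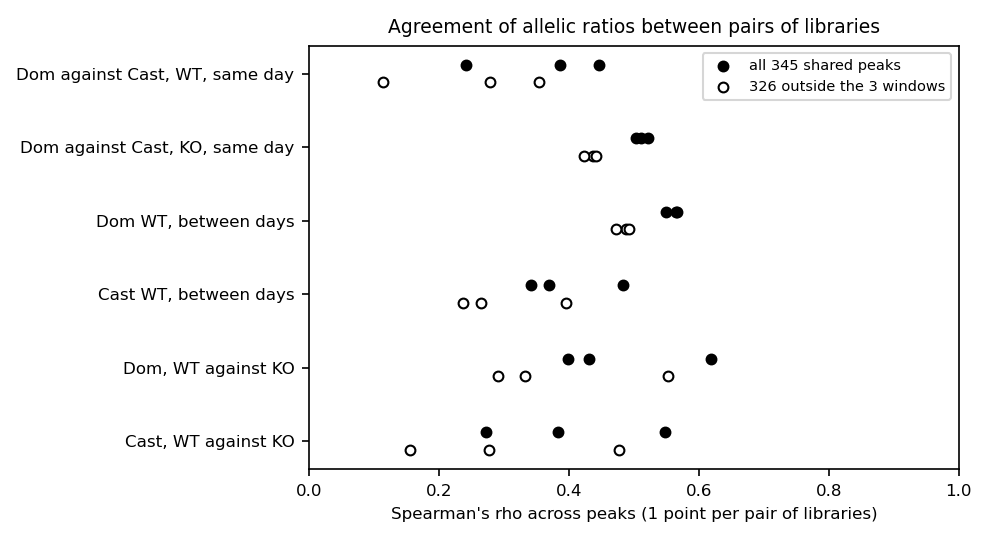
Spearman's rho across peaks for pairs of libraries of days 5, 7 and 15, 1 point per pair: filled points use all 345 shared peaks and open points the 326 outside the Firre, Dxz4 and Xist windows. The WT pairs of Dom against Cast lie at 0.24 to 0.45, the Dom WT pairs between days at 0.55 to 0.57 and the Cast WT pairs between days at 0.34 to 0.48.

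By level, 27 peaks had a mean ratio of at least 0.2 in both lines, 23 in Dom alone, 23 in Cast alone and 272 in neither. Without day 15 these counts were 28, 26, 20 and 271, but the members differed: 24 of the 27 stayed in their class, 19 of the 23 of Dom alone and 9 of the 23 of Cast alone, with 12 of the last then in neither. The 27 kept in both held 18 peaks of the 3 windows and 9 others. Of the 27, 24 were YY1-binding, against 197 of all 345. The YY1 letters were in 15 (55.6%, against 14.5% of all) and the CTCF letters in 3 (11.1%, against 31.3%). The Firre window, a single locus, holds 8 peaks with the YY1 letters. Outside the windows 7 of the 9 were YY1-binding, against 179 of 326. The 9 others were the promoters of Ddx3x, Kdm6a and Eif2s3x, a second peak nearest to Ddx3x, intronic peaks of Bcor and Cul4b, an intronic peak of Gm35612 next to Firre, and distal peaks nearest to Zfx and Tmem47. The second Ddx3x peak was at 0.148, 0.182 and 0.286 in Dom and 0.138, 0.0625 and 0.667 in Cast, so it reached 0.2 in either line on day 15 only. Of the 23 kept in Dom alone 11 were YY1-binding and 10 were promoters, and of the 23 kept in Cast alone 3 were YY1-binding and 5 were promoters, against 57.1% and 60% of all peaks. No difference between these classes was tested, and of the 9 Cast peaks that stayed without day 15, 0 were YY1-binding and 2 were promoters.

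**Figure D2:**
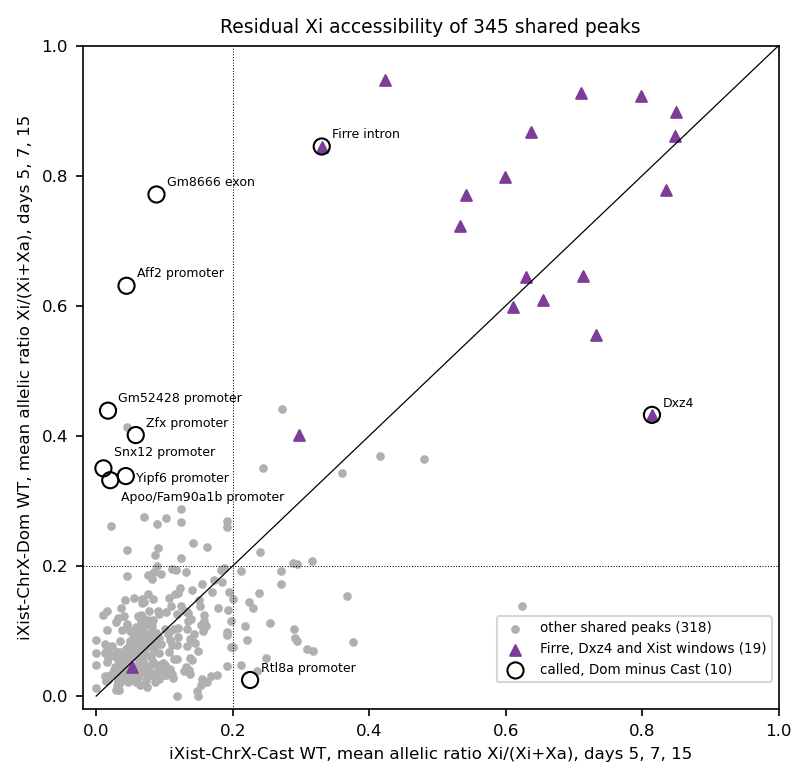
Mean allelic ratio of each of the 345 shared peaks on days 5, 7 and 15 in Cast WT (x axis) and Dom WT (y axis). Dotted lines mark a ratio of 0.2, triangles the 19 peaks of the 3 windows and rings the 10 peaks called by limma, of which 8 lie above the diagonal and 2 below.

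The Xist, Firre and Dxz4 windows held the 10 peaks with the highest mean ratio over both lines. At the 4 Xist peaks the mean ratio was 0.777 to 0.927 in Dom and 0.71 to 0.85 in Cast. The TetOn promoter sits on the silenced X only, so these peaks lie at the engineered locus. At the Xist promoter the Dom ratio was 0.982, 0.811 and 0.988 on days 5, 7 and 15, and the Cast ratio was 0.694, 0.80 and 0.636. All 3 Dom libraries were higher than the Cast library of the same day, by 0.217 ± 0.181 (SD, n = 3 days), and the peak was not called (limma adjusted p = 0.283).

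Within the Firre locus, some peaks had close ratios in both strains and others did not. The intronic peak at chrX:50622830-50623710 had ratios of 0.848, 0.90 and 0.833 in Dom and 0.805, 0.853 and 0.887 in Cast on days 5, 7 and 15, so the groups overlapped. The peak at chrX:50619864-50620625 was as close, at 0.508, 0.685 and 0.603 in Dom and 0.531, 0.685 and 0.615 in Cast. Elsewhere in the same gene, chrX:50597247-50597632 stood at 0.903, 0.975 and 0.964 in Dom but at 0.179, 0.312 and 0.778 in Cast. Its Cast ratio varied widely between days, and the difference of 0.525 ± 0.294 was not called (limma adjusted p = 0.175). The Firre promoter itself was closed on Xi in both, with mean ratios of 0.0448 in Dom and 0.0523 in Cast. Of the 11 peaks of the window, 10 were kept in both lines.

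At Dxz4, the repeat locus within 4933407K13Rik, all 4 peaks were kept in both strains, with mean ratios of 0.432 to 0.77 in Dom and 0.533 to 0.814 in Cast. The ratio on day 15 was above that on day 5 at each of the 4 peaks in both lines. At the first 2 the Dom mean was above the Cast mean (0.77 against 0.542, and 0.722 against 0.533), at the next they were 0.609 and 0.655, and the last was called, with Cast higher. Firre and Dxz4 are tandem repeats, so the assignment of fragments to a single repeat unit is uncertain.

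**Figure D3:**
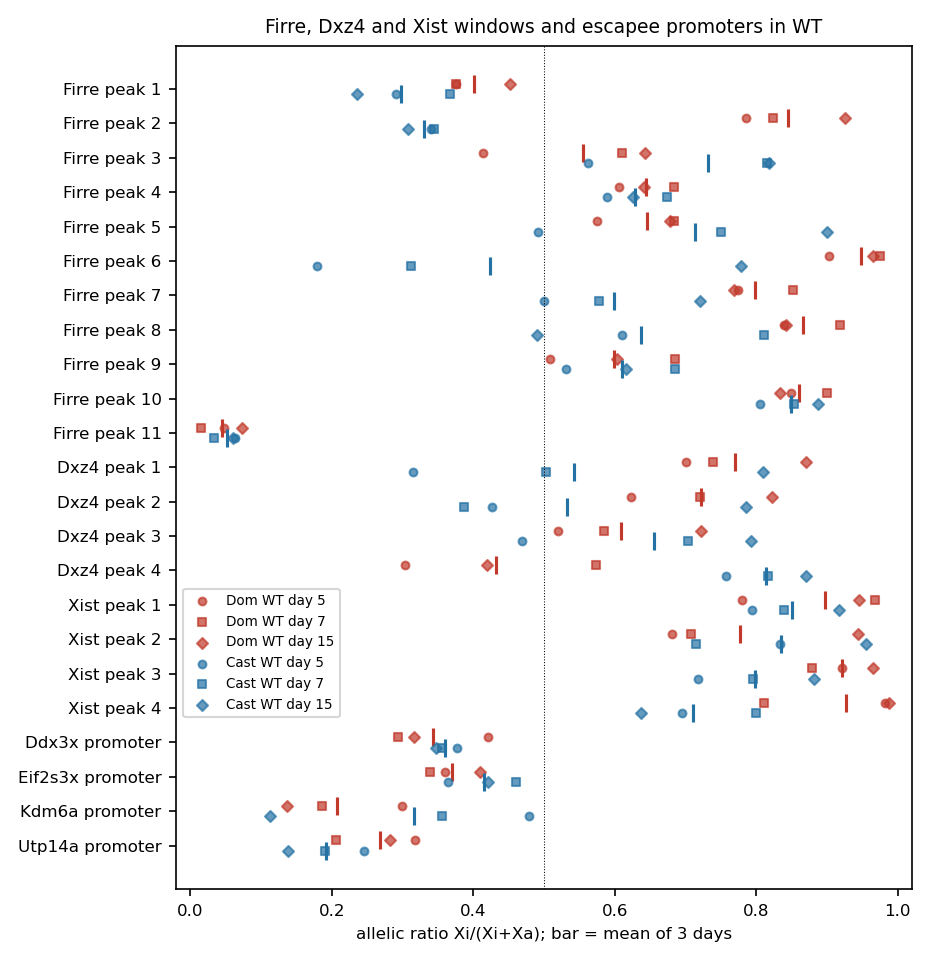
Allelic ratio in each WT library of days 5, 7 and 15 (red Dom, blue Cast; symbols give the day, bars the mean of 3 days) at the peaks of the Firre, Dxz4 and Xist windows, numbered by position, and at 4 escapee promoters. Firre peak 10 and the Ddx3x and Eif2s3x promoters overlap between lines, while Firre peaks 2 and 6 and Dxz4 peak 4 are apart on each day.

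At the promoters of known escapees no strain difference passed the test. The Ddx3x promoter (chrX:13279999-13282319), of an RNA helicase gene, had ratios of 0.421, 0.293 and 0.316 in Dom and 0.377, 0.356 and 0.347 in Cast. The Eif2s3x promoter (chrX:94212067-94213772), of a translation initiation factor, had 0.359, 0.339 and 0.41 in Dom and 0.364, 0.461 and 0.421 in Cast. Both pairs overlapped, with differences of -0.0164 ± 0.055 and -0.046 ± 0.066. The promoter of Kdm6a, a histone demethylase, went from 0.299 to 0.186 and 0.137 in Dom and from 0.478 to 0.356 and 0.112 in Cast, so Cast lay higher on days 5 and 7 and Dom on day 15. Utp14a, a ribosome assembly gene, had 0.318, 0.206 and 0.283 in Dom and 0.246, 0.19 and 0.138 in Cast. Over the 9 peaks of 6 escapee genes the median difference was 0.01 and rho was 0.95. Of these, 4 were kept in both (the second Ddx3x peak through day 15 only), 1 in Dom alone and 4 in neither. None was called, against 2.90% of all 345 peaks, and 9 peaks are too few for the absence of a call to be read.

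At the listed promoters of genes subject to silencing the mean ratio was under 0.2 in both lines. The median over all shared peaks was 0.0859 in Dom and 0.0817 in Cast, and some of these promoters lay above it. Mean ratios were 0.0979 in Dom and 0.106 in Cast at Hcfc1, a transcriptional coregulator, 0.101 and 0.156 at Ogt, the O-GlcNAc transferase, and 0.0293 and 0.0492 at Rpl10, a ribosomal protein gene. They were 0.0899 and 0.0814 at Fmr1, an RNA-binding protein of synapses, and 0.0325 and 0.177 at Syp, a synaptic vesicle protein. The 2 Bcor promoter peaks, of a Polycomb-linked corepressor, had 0.19 and 0.159 in Dom and 0.131 and 0.17 in Cast. None of these passed the test. At Syp the ratios on days 5, 7 and 15 were 0.0606, 0.037 and 0 in Dom and 0.156, 0.174 and 0.20 in Cast. The lines thus did not overlap there (limma adjusted p = 0.175), and the KO difference of 0.0245 had the other sign.

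limma on the 6 libraries, with day as a block, called 10 of the 345 peaks as different between strains (2.90%), 8 higher in Dom (2.32%) and 2 higher in Cast (0.580%), at a Benjamini-Hochberg adjusted p under 0.05. Without adjustment 54 passed. The spread in this test is that of the strain difference between days of 1 time course per line, not between cultures or clones. No peak was called when day 5, day 7 or day 15 was left out, with 27, 32 and 50 passing unadjusted.

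**Figure D4:**
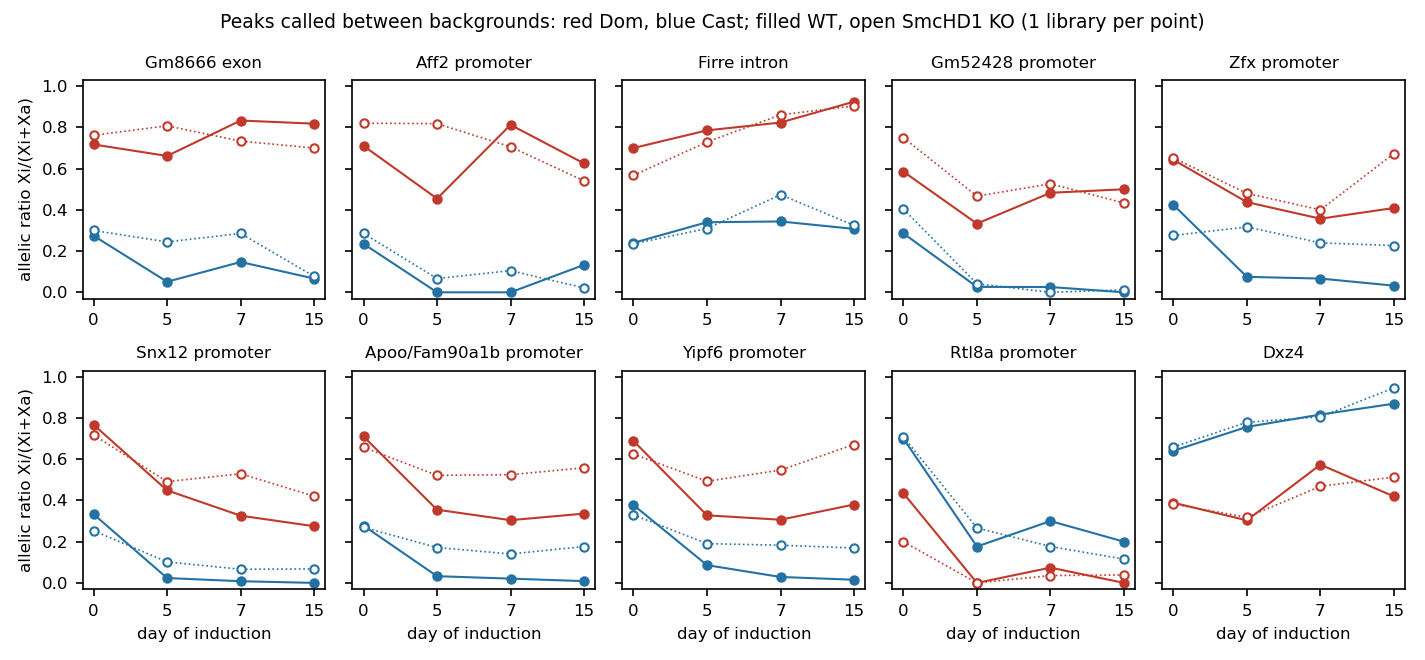
Allelic ratio by day at the 10 called peaks, 1 library per point: red Dom, blue Cast, filled and solid WT, open and dotted SmcHD1 KO. In each panel the Dom point lies on the same side of the Cast point of its genotype on each of days 0, 5, 7 and 15.

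The most different peak lay in an exon of Gm8666, a pseudogene, at chrX:75475179-75475715, and its ratio was 0.662, 0.833 and 0.818 in Dom and 0.0513, 0.147 and 0.0667 in Cast. The silenced X was thus the more accessible one in Dom and nearly closed in Cast, a difference of 0.683 ± 0.0707 (SD, n = 3 days; limma adjusted p = 0.00909). The promoter of Aff2, a gene of the AFF family of elongation factors, followed with 0.455, 0.812 and 0.625 in Dom and 0, 0 and 0.133 in Cast (chrX:69359848-69361149). Its difference was 0.586 ± 0.197 (limma adjusted p = 0.049), and the Dom values ranged widely from day to day. The Firre intron peak at chrX:50566392-50566946 stood at 0.786, 0.824 and 0.925 in Dom and 0.34, 0.344 and 0.308 in Cast, a difference of 0.514 ± 0.0908 (limma adjusted p = 0.0188). The promoter of Gm52428, a lncRNA gene, had 0.333, 0.483 and 0.50 in Dom and 0.0263, 0.0256 and 0 in Cast, a difference of 0.421 ± 0.101 (limma adjusted p = 0.0359).

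A further 4 promoters, all YY1-binding, had mean ratios of 0.332 to 0.401 on the domesticus Xi and 0.0106 to 0.058 on the castaneus Xi. The share called was 2.86% of the 140 YY1-binding promoters and 4.48% of the 67 non-YY1 promoters, against 2.90% of all 345 peaks. Zfx, a zinc finger transcription factor, had 0.438, 0.357 and 0.409 in Dom and 0.075, 0.0667 and 0.0323 in Cast (chrX:94121846-94123671). Snx12, a sorting nexin, had 0.449, 0.326 and 0.275 in Dom and 0.0235, 0.0082 and 0 in Cast (chrX:101221989-101223090). At both, every Dom library lay above every Cast library, by 0.343 ± 0.0463 and 0.339 ± 0.0775 (limma adjusted p = 0.0188 and 0.0359). The promoter shared by Apoo, of the mitochondrial cristae complex, and Fam90a1b had 0.355, 0.304 and 0.336 in Dom and 0.0326, 0.0207 and 0.00855 in Cast, a difference of 0.311 ± 0.024 (limma adjusted p = 0.0188). Yipf6, a Golgi membrane protein, had 0.328, 0.306 and 0.38 in Dom and 0.0861, 0.0288 and 0.0153 in Cast, a difference of 0.295 ± 0.0634 (limma adjusted p = 0.0359).

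The 2 peaks called in the other direction were a Dxz4 peak and a promoter. At Dxz4 (chrX:75757862-75759947) the ratio was 0.304, 0.574 and 0.419 in Dom and 0.757, 0.817 and 0.87 in Cast, so Dom lay lower by 0.382 on average (difference -0.382 ± 0.121; limma adjusted p = 0.049). At the promoter of Rtl8a, a gene derived from a retrotransposon Gag, it was 0, 0.0741 and 0 in Dom and 0.176, 0.30 and 0.20 in Cast, a difference of -0.201 ± 0.0247 (limma adjusted p = 0.048). Rtl8a has near-identical neighbouring copies, so its fragments are uncertain. By their means, the Gm8666, Firre, Aff2 and Dxz4 peaks were more open on Xi than on Xa in one line and less open in the other, and the other 6 were less open on Xi in both.

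The called peaks were already biased towards the same strain before induction. In day 0 mESCs all 10 had the sign of the later difference in WT, and all 10 had it in the day 0 KO libraries, which the test did not use. At Snx12 the day 0 ratio was 0.767 in Dom and 0.333 in Cast, at Aff2 0.711 and 0.235, and at Rtl8a 0.435 and 0.70. Read as the share of the domesticus allele, the Snx12 promoter was thus biased towards domesticus in both lines before Xist was induced. Of the 33 peaks with a day 0 difference of at least 0.2, 8 were called and 25 stayed higher in Dom after induction, with a median difference of 0.0879. Of the 32 with a day 0 difference of -0.2 or lower, 2 were called and 19 were lower in Dom, with a median of -0.0273. None of the 280 peaks in between was called.

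The size of the difference and the bias before induction went together over all peaks. Of the 24 peaks that differed by at least 0.2 after induction, 21 had the same sign on day 0 in WT, 23 on day 0 in KO and 22 in KO after induction. Of the 201 that differed by under 0.05, 95, 102 and 116 did. Across the 345 peaks rho between the late and the day 0 difference was 0.37 in WT, and 0.37 with the day 0 difference of the KO clones. A limma test of the change in the strain difference from day 0, on log2 odds with 0.05 added to each allele, called 0 of 345 peaks (0.00%), with 4 passing unadjusted. On the ratio scale it called 1, with 44 passing unadjusted. The called peak was the promoter of Zbtb33, a zinc finger gene, named after its value was seen. It was at 0.818 in Dom and 0.143 in Cast on day 0, with means of 0.0152 and 0.0303 afterwards. The day 0 value is 1 library per line, so this test had little to compare with.

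**Figure D5:**
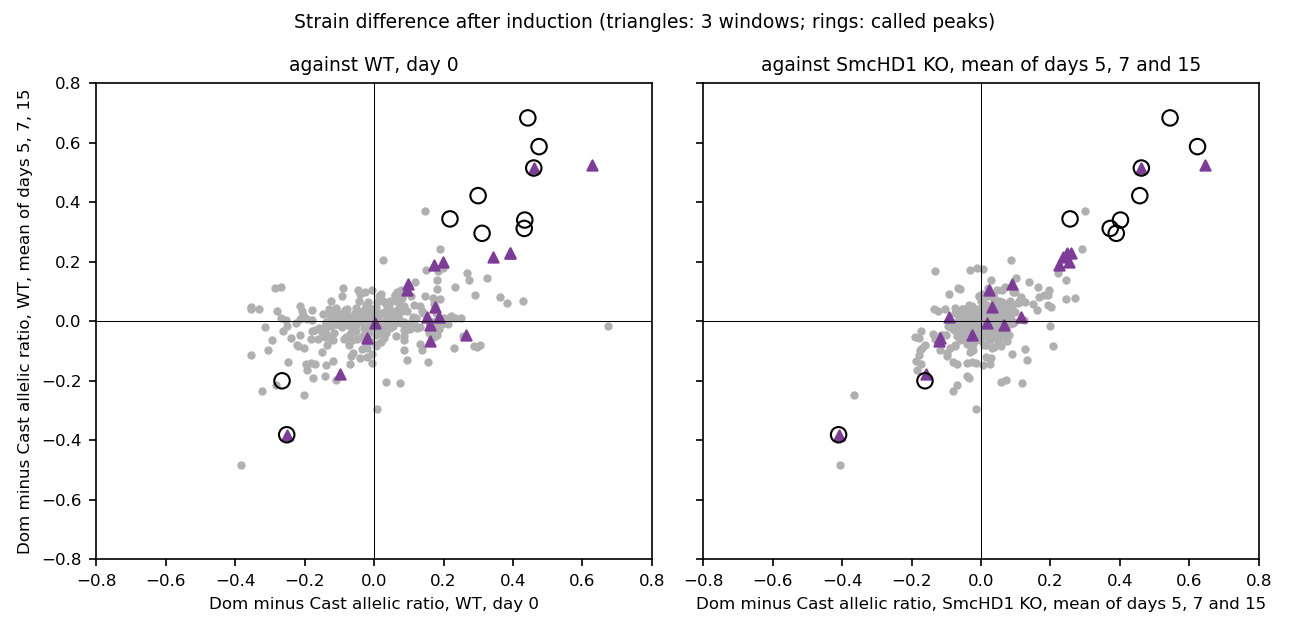
Dom minus Cast allelic ratio in WT, mean of days 5, 7 and 15 (y axis), against the same difference in WT on day 0 (left) and in SmcHD1 KO on days 5, 7 and 15 (right), 1 point per shared peak. All 10 called peaks (rings) lie in the quadrants where both differences have the same sign.

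The difference was present again in the SmcHD1 KO clones, whose 6 libraries the WT test did not use. All 10 called peaks had the same sign on each of the 3 days in KO, with sizes of 0.161 to 0.624. The same limma fit on the KO libraries called 30 peaks (8.70%), among them 9 of the 10, and with robust and trended variance it called 28, among them all 10. In the first of these fits limma gave all peaks a common spread, which lowers the p of peaks that vary more. With 1 mean per line and genotype as a covariate, limma over the 4 lines called 40 peaks (11.6%), 27 higher in Dom and 13 higher in Cast, including all 10. This fit holds the 6 WT libraries that gave the 10 calls, so their return is not independent support. It has only 4 values per peak, so its p rests mostly on the spread pooled across peaks. Left without day 5 it called 13, without day 7 22 and without day 15 40. The KO clones come from the WT lines, so they repeat the libraries and not the line. Whether the strain difference itself differed between WT and KO was tested by an interaction over 12 libraries: limma called 0 peaks, with 8 passing unadjusted.

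A rule of size, a difference of at least 0.1 in the same direction on each of the 3 days, picked 18 peaks (5.22%), 12 higher in Dom and 6 higher in Cast, and 34 when day 15 was left out and 2 days had to pass. They comprise the 10 called peaks and 8 others: 2 Firre intron peaks with Dom higher, 1 Firre exon peak with Cast higher, the Hdac6 promoter and a distal peak 18146 bp from the start of Stard8 with Dom higher, and the Xiap and Gm715 promoters and a distal peak 266382 bp from Dipk2b with Cast higher. In KO, 17 of the 18 had the same sign. The exception was Gm715, at 0, 0.0385 and 0.0385 in Dom and 0.118, 0.182 and 0.167 in Cast in WT, whose KO difference was 0.134. Over all peaks, 129 (37.4%) had 1 sign on all 3 days, 68 with Dom higher and 61 with Cast higher.

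Several of the peaks with the largest differences in favour of Cast were highest in the Cast library of day 15. The distal peak at chrX:18727801-18728788, nearest to Dipk2b, was at 0.102, 0.141 and 0.174 in Dom and at 0.50, 0.373 and 1 in Cast, so the groups did not overlap. Its difference of -0.485 ± 0.307 was not called in WT (limma adjusted p = 0.188) and was called over the 4 lines (limma adjusted p = 1.26e-05). The fit over the 4 lines includes the same WT libraries, and its p rests mostly on the spread pooled across peaks. The promoter of Cdx4, a homeobox gene next to Xist, had 0.107, 0.148 and 0 in Dom and 0.119, 0.263 and 0.50 in Cast, and its KO difference of 0.118 had the other sign. The promoters of Klhl13 and Cfap47 likewise reached 0.50 in Cast on day 15 only. In the other direction, the distal peak near Stard8 had 0.41, 0.289 and 0.543 in Dom and 0.133, 0 and 0 in Cast (limma adjusted p = 0.0958).

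At the X inactivation centre, 3 other peaks had higher means in Cast. An intronic peak of Chic1 had 0.0606, 0.0435 and 0.105 in Dom and 0.143, 0.444 and 0.364 in Cast, a difference of -0.247 ± 0.16. It was not called in WT (limma adjusted p = 0.188) and was called over the 4 lines (limma adjusted p = 0.000329), with the limits of that fit given above. A peak near Tsx had mean ratios of 0.158 in Dom and 0.238 in Cast. With Cdx4, these 3 were kept in Cast alone (Cdx4 and the Tsx peak not without day 15). The 4 Xist peaks make up the rest of the 7 peaks of this list. None of the 7 was called in WT, against 2.90% of all shared peaks, and the list is too short for that to be read.

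Described by kind of peak, rho between the Dom and Cast means was 0.29 over 207 promoters and 0.51 over 138 distal peaks, and the median size of the difference was 0.0291 and 0.067. By the YY1 mark, rho was 0.57 over 197 YY1-binding peaks, with a median size of difference of 0.0295, and 0.24 over 148 non-YY1 peaks, with 0.0538. Outside the 3 windows it was 0.43 over 179 YY1-binding and 0.23 over 147 non-YY1 peaks. Among distal peaks rho was 0.81 over 57 YY1-binding and 0.16 over 81 non-YY1 peaks. Among promoters it was 0.40 over 140 YY1-binding and 0.075 over 67 non-YY1 peaks. The promoter and distal values include the windows. Of the calls, 7 of 197 YY1-binding peaks (3.55%) and 3 of 148 non-YY1 peaks (2.03%) were among them, against 2.90% of all. Among promoters these shares were 2.86% and 4.48%, and among distal peaks 5.26% and 0%.

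The nearest gene of a peak was also given the silencing class that the study assigned it from RNA of the Dom line, used here only as a label. By that class, rho was 0.60 over 89 peaks of slow-silencing genes, 0.16 over 72 of intermediate and 0.50 over 67 of fast-silencing genes. Peaks of the Firre, Dxz4 and Xist windows were not left out of these classes, and 5 peaks of the fast class were kept in both lines. Slow genes had median ratios of 0.109 in Dom and 0.0897 in Cast, and fast genes 0.0452 and 0.0643. Called by limma were 3 peaks of slow genes (3.37%), 3 of intermediate (4.17%), 0 of fast and 4 of genes with no class (3.42%), against 2.90% of all. Among 57 peaks of chromatin and transcription regulators limma called 1, Zfx (1.75%, against 2.90% of all), and 6 were kept in both lines (10.5%, against 7.83% of all). Their median difference was -0.00349, against -0.000459 over all shared peaks. For 22 peaks of housekeeping and metabolism genes, 18 of neuronal and neural progenitor genes and 4 of pluripotency and germline genes it was 0.0107, -0.0209 and 0.00401. These last 3 lists had no call, and at the share of all peaks lists of their sizes would hold less than 1.

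The peaks listed for 1 line alone gave no comparison between strains. The 45 of Dom had a median late ratio of 0.107, with 8 at or above 0.2, and the 20 of Cast within the shared stretch had 0.0722, with 4. The 218 Cast peaks beyond that stretch had 0.0663, with 21. The study filtered peaks for accessibility from both alleles before induction, so peaks open on 1 strain only are largely outside these counts. A WT day 0 ratio outside 0.15 to 0.85 stood at 1 of the 345 shared peaks, the Zbtb33 promoter.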

How the data were processed

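ATAC-seq libraries of WT and SmcHD1 KO iXist-ChrX lines were used as deposited. The authors aligned reads with Bowtie2 (version 2.3.5.1) to mm10 masked at strain variants, removed duplicates with Picard, assigned fragments to alleles with SNPsplit, called peaks per sample with MACS2 (q under 0.01), built consensus peaks and counted allelic fragments with featureCounts. They filtered peaks on allelic fragments and on the day 0 ratio (0.15 to 0.85 in the methods stated for a related set) and deposited the fraction Xi/(Xi + Xa) of each peak and sample, with a YY1 mark from ChIP-seq. Masking removes most reference bias, but a residual mapping bias towards one strain would look like a strain difference in both lines, and this was not tested. Fragment counts are not used here, so no interval for counting error could be given.

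Peaks were paired between tables at an overlap of 50% of the shorter peak, and named by the nearest start site. A promoter lay within 500 bp of one. Dom minus Cast was fitted in limma 3.58.1 (R 4.3.3) over all 345 peaks, with Benjamini-Hochberg adjustment at 0.05, after being tested on simulated data. In 20 simulated runs the fit called 22.6% of shifts of 0.1 and 85.9% of shifts of 0.2, and 4.24% of its calls were unshifted peaks. A peak that was not called may thus still differ by about 0.1. Descriptions and the exact permutation test used Python 3.11.15, scipy 1.17.1, pandas 2.3.3 and numpy 2.4.6, and plots used matplotlib 3.10.9. Means are over days 5, 7 and 15, and ± is the SD of the daily difference. Named peaks are the 10 with the highest mean over both lines, the 10 largest differences each way of the same sign on all 3 days, the 5 smallest p each way, a fixed list of promoters and the 3 windows. The promoters of Kdm5c and Pbdc1 on that list are not analysed here. A peak that this rule names is not reported here. Members and gene lists were chosen with earlier results of these data known. Alternatives covered overlap, thresholds, scale, variance, peak class, exact 0 and 1, single days and the KO libraries.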

Additional observations from a re-analysis of the deposited data

Results flagged for a closer look

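Dom minus Cast had 1 sign on all 3 days in WT at 129 of the 345 peaks (37.4%). At 6 of these the sign was the opposite on all 3 days in SmcHD1 KO. The mean difference was 0.0922 in WT and -0.0936 in KO at a Bcor peak (chrX start 12139831), and 0.0537 and -0.0355 at an Apln peak. At a Firre intron peak (start 50576874) it was 0.0146 and -0.0921. In the other direction it was -0.00678 and 0.0909 at an Emd peak, -0.0671 and 0.0758 at an Ikbkg peak, and -0.0357 and 0.055 at a Pls3 peak. These opposite signs were not tested as such, and the interaction of strain and genotype in limma called 0 of the 345 peaks, with 8 passing unadjusted and a smallest adjusted p of 0.953.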

How the results depend on the processing

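The calls between strains depended on the number of days. limma called 10 peaks in WT, and 0 without day 5, without day 7 or without day 15, each with 4 libraries. It called 1 with day 0 ratios of 0.3 to 0.7 in both lines (Zfx), 2 with robust and trended variance, and 2 among distal peaks only (in both cases the Firre intron and Gm8666 peaks). With the alternatives chosen after seeing the data, it called 30 in the KO libraries and 28 there with robust and trended variance. With 1 mean per line over the 4 lines it called 40, and in alternatives also chosen after seeing the data 13 without day 5, 22 without day 7 and 40 without day 15. The change from day 0 gave 0 calls on log2 odds and 1 on the ratio scale, with 4 and 44 passing unadjusted.

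The Spearman coefficient of 0.44 was 0.67 over peaks with no exact 0 or 1, 0.29 over promoters and 0.24 on day 15 alone, Pearson's r was 0.75, and rho was 0.081 between the mean and the difference on log2 odds. Peaks kept in both lines numbered 27, and 9 outside the windows, 4 among promoters and 42 at a threshold of 0.15. Those kept in Dom alone numbered 23, and 10 without exact 0 or 1, 10 among promoters, 13 among distal peaks and 36 at 0.15. For Cast alone they numbered 23, and 12, 5, 18 and 36 under the same settings, with 14 at 0.25. Neither held 272, and 136 without exact 0 or 1 and 84 among distal peaks. The rule of size picked 18, and 11 without exact 0 or 1, 9 with day 0 ratios of 0.3 to 0.7, 10 among promoters, 8 among distal peaks, 30 to 34 with 1 day left out, 48 at 0.05 and 11 at 0.2. The Gm715 difference turned to 0.00209 over the 4 lines. Overlap limits of 1 bp or a reciprocal 80% gave 345 peaks again. Libraries were matched by day, and without the day term limma again called 10 peaks, 9 with Dom higher and 1 with Cast higher. No paired analysis was possible by replicate number, because each line had 1 library per day and the labels carry no such numbers. With 1 line per strain and genotype and no fragment counts, the variation between clones and the counting error of a ratio are not measured.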
